A study of Homo sapiens with 36 samples.

Results

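The genes described here are the interleukin-6 (IL6) family cytokines and colony stimulating factors, with the receptor chains and the feedback inhibitor that go with them. Members were taken by name, as the array probes carrying exactly 1 gene symbol from a list of 10, and where a gene had several such probes the one of highest mean over all arrays was used. The array measured 9 of the 10 genes, among 17958 genes in all. Those were the ligands IL6, IL11, LIF, IL24 and CSF3, the receptor chains IL6ST, OSMR and LIFR, and SOCS3. The tenth, CSF2, had no probe of its own and was not analysed here. No filter on low values was applied, so all 9 entered every test.

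In the IL6 family, IL6, IL11 and LIF each bind their own receptor chain and then recruit gp130, the chain encoded by IL6ST that most of the family shares. The assembled receptor activates JAK kinases and the transcription factor STAT3. STAT3 induces SOCS3, which binds gp130 and shuts the signal down. IL6 and LIF are made by many basal-like breast cancer cells and act back on the same cells. IL11 is known from bone metastasis of breast cancer, and CSF3 (G-CSF) drives the output of neutrophils. IL24 belongs by sequence to the IL10 family and signals through IL20 receptor chains. The MEK-ERK kinase pathway feeds several of these genes through AP-1 and ETS factors, and DUSP4 is a phosphatase that removes the activating phosphates from ERK and JNK.

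RNA was measured on 36 single-colour Affymetrix arrays of the established breast cancer lines MDA231, SUM159PT and BT549. Every line had 4 groups of 3 arrays lettered A, B and C. The siDUSP4 cells received 10 nM siRNA against DUSP4 and DMSO. Cells of the selumetinib groups received 10 nM non-targeting control siRNA and 1 uM selumetinib, an inhibitor of the kinase MEK, for the last 4 h or 24 h. The siCONTROL cells received the same control siRNA and DMSO, and all cells were harvested 96 h after transfection. Control siRNA was thus present in the selumetinib groups too. The control reagent was a pool, the make-up of the DUSP4 reagent is not given in the sources used here, and no other DUSP4 siRNA was among the groups. SUM159PT cells grew with hydrocortisone, a glucocorticoid, which the media given for MDA231 and BT549 do not hold, so line and medium cannot be told apart. All 3 siDUSP4 and selumetinib groups of a line were compared with the same 3 siCONTROL arrays.

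For 24 of the 36 arrays the labels contradict each other over SUM159PT and BT549, and the sample titles were followed. In siCONTROL the arrays titled BT549 had RB1, lost in BT549, at 6.83 ± 0.16 and CDKN2A at 9.82 ± 0.11 on the log2 scale, while those titled SUM159PT had RB1 at 9.40 ± 0.01 and CDKN2A, lost in SUM159PT, at 4.12 ± 0.09 (SD, n = 3 each). RB1 was at 8.03 ± 0.10 in the BT549 siDUSP4 arrays, above BT549 siCONTROL, and at 6.96 and 7.06 in the BT549 4 h and 24 h arrays, while the SUM159PT groups ran from 9.12 to 9.50. Whether A, B and C were separate cultures is not said in the labels, and the p-values here cover no more than the spread among the 3 arrays of a group, which could be technical. DUSP4 itself was at 18.7% of its siCONTROL level in MDA231 siDUSP4 cells, at 27.9% in SUM159PT and at 21.1% in BT549. Selumetinib lowered DUSP4 too, to 19.6% at 4 h and 41.8% at 24 h in MDA231 and to 39.3% and 55.4% in SUM159PT. BT549 cells had 63.1% at 4 h, which was not called, and 60.6% at 24 h, which was. Of markers that define blood cells, CD3E averaged 3.49 in MDA231, 3.63 in SUM159PT and 3.55 in BT549 siCONTROL cells, and PTPRC averaged 3.95, 5.75 and 3.83 in the same order of lines. CD68, at 10.88, 9.72 and 9.46, was high in all 3 lines, PECAM1 was at 7.37 in MDA231 and 7.11 in SUM159PT, and CD14 was at 6.94 in SUM159PT. In all, 6 to 9 of 10 measured blood and endothelial markers lay below 5.33, the median of all probes, in each group. The summed linear signal of those 10 markers ran from 495 to 643 in BT549 24 h cells and from 815 to 998 in BT549 siCONTROL cells, and its part in the BT549 results was not tested. The upper quartile of all probes was lowest in MDA231 4 h array B (7.48) and BT549 24 h array A (7.50). MDA231 4 h array C followed at 7.66, close to SUM159PT 4 h array A at 7.70, and the highest array was at 8.03. Called results that were lost or gained without the 3 lowest arrays are given with and without them.

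The stretches before the transcription starts of IL6 and IL11 are shown because these genes moved in opposite directions in MDA231 siDUSP4 cells. Each holds the 250 bases before the start on the coding strand, from RefSeq on GRCh38.p14, with letters of searched motifs in capitals. The IL6 stretch is chr7:22726950-22727199 (plus strand), and the IL11 stretch is chr19:55370464-55370713 (minus strand).
IL6: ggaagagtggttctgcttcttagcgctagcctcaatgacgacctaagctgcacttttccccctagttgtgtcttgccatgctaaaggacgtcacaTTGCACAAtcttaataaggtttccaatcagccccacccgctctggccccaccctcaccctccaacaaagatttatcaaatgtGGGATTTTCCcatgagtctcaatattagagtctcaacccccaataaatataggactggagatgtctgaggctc
IL11: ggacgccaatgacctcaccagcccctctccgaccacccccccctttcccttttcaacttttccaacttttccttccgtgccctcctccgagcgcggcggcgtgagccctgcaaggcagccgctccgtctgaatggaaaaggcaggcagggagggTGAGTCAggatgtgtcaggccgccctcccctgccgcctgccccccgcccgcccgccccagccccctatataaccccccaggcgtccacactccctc
In the IL6 stretch the capitals mark TTGCACAA, a match to the C/EBP motif TTGCNNAA at bases -155 to -148 from the start, and GGGATTTTCC, a match to the NF-kB motif at -73 to -64. The IL11 capitals mark TGAGTCA, a match to the AP-1 motif TGANTCA at -96 to -90. Windows of 300 bases, with 50 more bases after the start, were searched on both strands for these motifs and for the ETS motif CCGGAA, the STAT motif TTCNNNGAA and the CRE TGACGTCA. Of 35116 RefSeq promoters, 10.5% held the C/EBP letters, 1.91% the NF-kB letters, 7.71% the AP-1 letters, 17.2% the ETS letters, 7.66% the STAT letters and 1.85% the CRE letters. The AP-1 and C/EBP letters also matched in the OSMR window, the ETS letters in those of IL6ST and SOCS3, and the STAT and C/EBP letters in those of LIFR. None of these 6 motifs matched in the IL24 window. Windows were found for 7 of the 9 measured genes, and LIF and CSF3 are named only. A match describes letters and is not a binding site.

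The lines differed in these genes in siCONTROL cells, which had control siRNA and DMSO. The levels of 8 of 9 genes differed between MDA231 and SUM159PT at an adjusted p under 0.05 (limma, 44.8% of all genes). Between MDA231 and BT549, 5 of 9 differed (48.1% of all genes), and between SUM159PT and BT549, 7 of 9 did (50.2%). IL6 averaged 8.10 ± 0.20 in MDA231, 8.59 ± 0.02 in SUM159PT and 10.56 ± 0.06 in BT549 (log2 signal, SD, n = 3), and all 3 pairs of lines differed, BT549 being 5.51-fold above MDA231. LIF averaged 7.89 ± 0.12 in MDA231, 4.44 ± 0.13 in SUM159PT and 8.10 ± 0.17 in BT549. SUM159PT thus lay 10.9-fold below MDA231 and 12.6-fold below BT549 in LIF signal, while the difference between MDA231 and BT549 missed the threshold (-0.21, 95% interval -0.56 to 0.13). The SUM159PT level of 4.44 is below the median probe at 5.33 and was not shown to be above background, so both folds are ratios of probe signal and can be read only as lower bounds.

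IL11 averaged 7.40 ± 0.04 in MDA231, 5.80 ± 0.20 in SUM159PT and 5.60 ± 0.07 in BT549, and the difference between SUM159PT and BT549 missed the threshold (0.21, interval -0.04 to 0.46). CSF3 averaged 6.51 ± 0.09, 5.60 ± 0.08 and 6.08 ± 0.27 in MDA231, SUM159PT and BT549, and all 3 pairs differed. IL24 averaged 7.72 ± 0.13 in MDA231 and 7.52 ± 0.06 in SUM159PT, which did not differ beyond the threshold (interval -0.24 to 0.64), and 6.54 ± 0.20 in BT549. Among receptor chains, IL6ST averaged 11.07 ± 0.09 in MDA231, 11.42 ± 0.02 in SUM159PT and 11.06 ± 0.11 in BT549. OSMR, the chain that gives gp130 its oncostatin M specificity, averaged 11.26 ± 0.06 in MDA231 and 11.78 in both SUM159PT (SD 0.04) and BT549 (SD 0.06). LIFR, the receptor chain of LIF, averaged 9.10 ± 0.09 in MDA231, 10.57 ± 0.06 in SUM159PT and 9.01 ± 0.32 in BT549. SOCS3 averaged 6.59 ± 0.02 in MDA231, 7.48 ± 0.06 in SUM159PT and 6.57 ± 0.19 in BT549. For IL6ST, LIFR and SOCS3 only the pair of MDA231 and BT549 missed the threshold, with intervals of the difference of -0.17 to 0.19, -0.14 to 0.31 and -0.30 to 0.33.

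**Figure D1:**
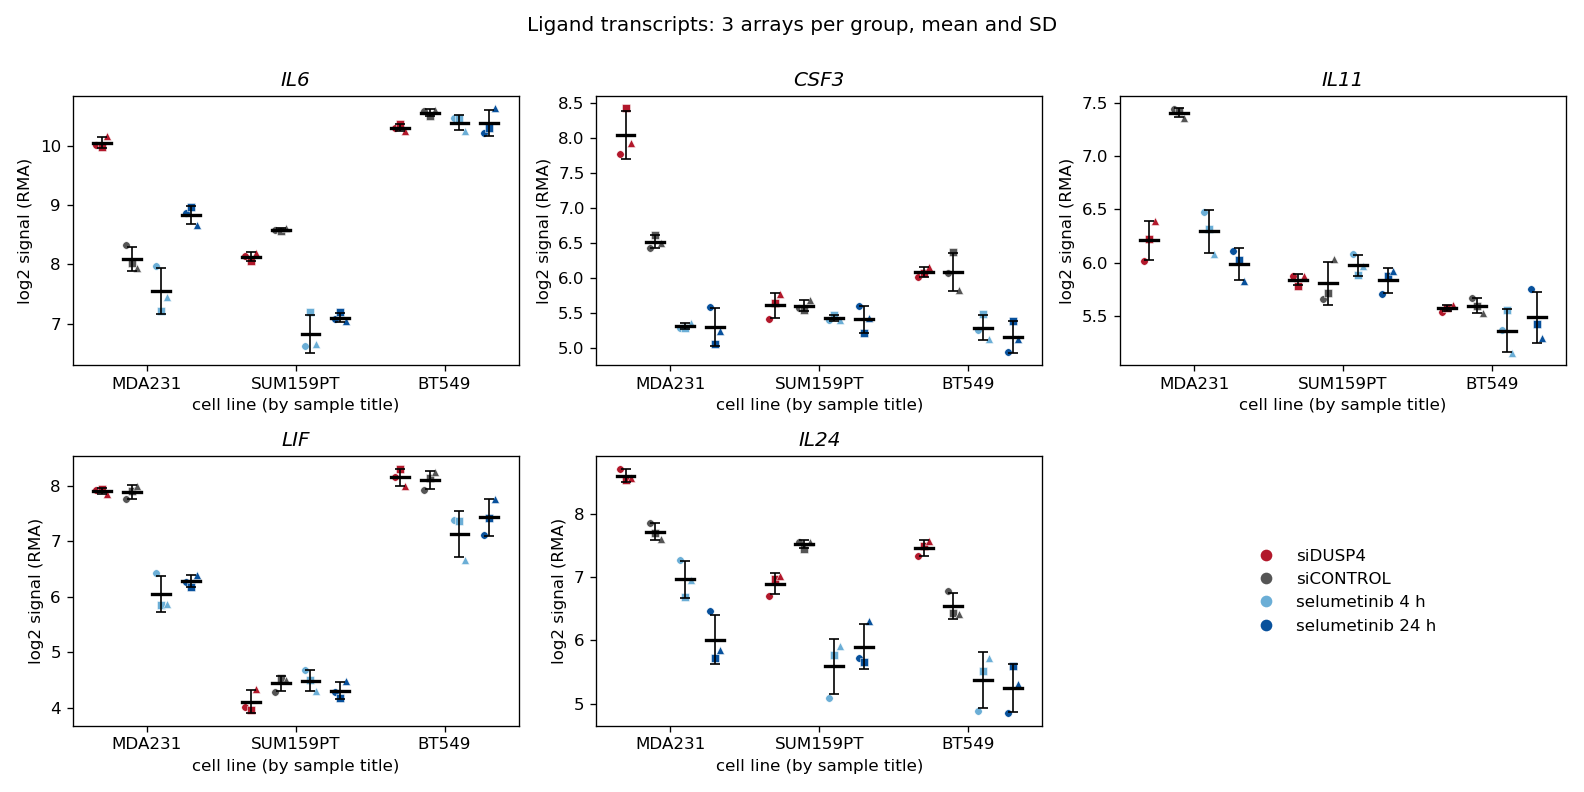
Log2 RMA signal of the 5 ligand genes on every array, by cell line and group; circles, squares and triangles are arrays A, B and C, the bar is the group mean and the whisker the SD. IL6 in MDA231 is highest in the siDUSP4 arrays (9.98 to 10.16), and LIF in SUM159PT stays between 3.97 and 4.68 in all groups.

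Knock-down of DUSP4 changed 5 of the 9 genes in MDA231, where 17.6% of all genes were called (7.86% higher and 9.77% lower). IL6, CSF3 and IL24 rose, and IL11 and OSMR fell. IL6 stood at 10.02, 9.98 and 10.16 in MDA231 siDUSP4 cells (arrays A, B and C) and at 8.33, 8.03 and 7.94 in MDA231 siCONTROL cells. The lowest siDUSP4 array lay above the highest siCONTROL array, and the difference was 1.95 ± 0.15 (log2, limma standard error, adjusted p = 1.1e-11), or 3.87-fold. CSF3 stood at 7.77, 8.43 and 7.92 in siDUSP4 cells and at 6.43, 6.61 and 6.50 in siCONTROL cells. These groups did not overlap either, although array B of the siDUSP4 group lay well above A and C, and CSF3 rose by 1.53 ± 0.15 (adjusted p = 3.6e-09), or 2.88-fold. IL24 was measured at 8.71, 8.53 and 8.57 in siDUSP4 cells and at 7.86, 7.69 and 7.61 in siCONTROL cells. The groups were apart, and IL24 rose by 0.88 ± 0.21 (adjusted p = 0.003).

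IL11 went the other way in the same MDA231 arrays. Its level was 6.02, 6.22 and 6.39 in siDUSP4 cells, against 7.44, 7.42 and 7.36 in siCONTROL cells. All siDUSP4 arrays were more than 0.9 below all siCONTROL arrays, and the change was -1.20 ± 0.12 (adjusted p = 1.1e-08), leaving 43.6% of the siCONTROL signal. LIF averaged 7.90 ± 0.05 in siDUSP4 cells and 7.89 ± 0.12 in siCONTROL cells (SD, n = 3 each). The arrays of the groups overlapped, and the LIF difference of 0.01 ± 0.17 had an interval of -0.33 to 0.36. OSMR changed by -0.23 ± 0.07 (adjusted p = 0.027), a call lost in 7 of the alternative fits, among them 5 that leave out a single array (siCONTROL A or B, or siDUSP4 A, B or C, adjusted p 0.053 to 0.11). IL6ST, LIFR and SOCS3 were not called, at -0.20 ± 0.09, 0.05 ± 0.11 and -0.21 ± 0.15. IL6ST lay at 10.83 to 10.91 in siDUSP4 cells and at 11.01 to 11.17 in siCONTROL cells. It was called lower in 4 alternative fits (adjusted p 0.018 to 0.041). These were quantile normalization repeated, array medians aligned, a variance trend with intensity and array weights. In 7 of 9 genes the siDUSP4 and siCONTROL arrays did not overlap, as for 36.3% of all genes.

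In SUM159PT, siDUSP4 changed 0 of the 9 genes by limma, where 2.83% of all genes were called (1.05% higher and 1.78% lower), and 4 had an unadjusted p under 0.05. Those 4 were IL6, IL24 and OSMR with lower values and LIFR with higher ones. IL6 stood at 8.14, 8.05 and 8.20 in SUM159PT siDUSP4 cells and at 8.58, 8.57 and 8.61 in SUM159PT siCONTROL cells. All siDUSP4 arrays were below all siCONTROL arrays, and the difference was -0.45 ± 0.15 (adjusted p = 0.095). It was called when only the arrays of the line entered the fit (adjusted p = 0.043), and in 3 other fits (the 2 groups only, quantile normalization repeated and array weights). IL24 stood at 6.70, 6.97 and 7.01 in siDUSP4 cells and at 7.56, 7.44 and 7.55 in siCONTROL cells, again without overlap (-0.62 ± 0.21, adjusted p = 0.13). It was called with the 2 groups only and with array weights (adjusted p = 0.0059 and 0.0064). CSF3 and IL11 differed by 0.01 ± 0.15 and 0.04 ± 0.12, with intervals of -0.30 to 0.31 and -0.21 to 0.29. The arrays did not overlap in 5 of 9 genes, as for 32.3% of all genes.

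In BT549, siDUSP4 changed 3 of the 9 genes, where 14.2% of all genes were called (4.97% higher and 9.22% lower), and those were the receptor chains IL6ST and OSMR, which fell, and IL24, which rose. IL6ST, the shared gp130 chain, stood at 10.10, 10.09 and 9.95 in BT549 siDUSP4 cells and at 10.97, 11.19 and 11.03 in BT549 siCONTROL cells. The groups were far apart, and the change of -1.01 ± 0.09 (adjusted p = 2.9e-10) left 49.5% of the siCONTROL signal. OSMR stood at 11.24, 11.36 and 11.30 in siDUSP4 cells and at 11.72, 11.79 and 11.84 in siCONTROL cells, without overlap (-0.49 ± 0.07, adjusted p = 2e-05). IL24 had 7.33, 7.49 and 7.56 in siDUSP4 cells and 6.77, 6.44 and 6.42 in siCONTROL cells, and rose by 0.92 ± 0.21 (adjusted p = 0.0028). IL6 was high in both groups, at 10.31, 10.37 and 10.24 in siDUSP4 cells and 10.58, 10.50 and 10.60 in siCONTROL cells. The lower siDUSP4 values did not overlap with siCONTROL, yet the difference of -0.25 ± 0.15 missed the threshold (adjusted p = 0.29). It was called with the 2 groups only (adjusted p = 0.044). CSF3, IL11, LIF, LIFR and SOCS3 were not called in BT549 siDUSP4 cells, and 4 of 9 genes did not overlap, as for 38.7% of all genes.

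The effect of siDUSP4 differed between the lines for 5 of 9 genes by limma's F test over all 3 lines, where 15.5% of all genes passed. For IL6 the MDA231 effect exceeded that in SUM159PT by 2.41 ± 0.21 and that in BT549 by 2.21 ± 0.21 (log2, adjusted p = 1.1e-09 and 4.3e-09). CSF3 and IL11 also differed between MDA231 and each other line. IL11 in SUM159PT and BT549 siCONTROL cells (5.80 and 5.60) was already below the 6.21 of MDA231 siDUSP4 cells, so a fall there may not show. The CSF3 effect was larger in MDA231 by 1.52 ± 0.21 over SUM159PT and by 1.53 ± 0.21 over BT549. IL24 responses in MDA231 and BT549 differed by -0.03 ± 0.30, and the SUM159PT response lay below both, by -1.54 ± 0.30 relative to BT549 (adjusted p = 0.0014). For IL6ST the BT549 response was below those of both other lines (adjusted p = 1.8e-05 against MDA231). OSMR, although called in MDA231 and BT549 and not in SUM159PT, was not shown to differ between lines (adjusted p = 0.0885).

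**Figure D2:**
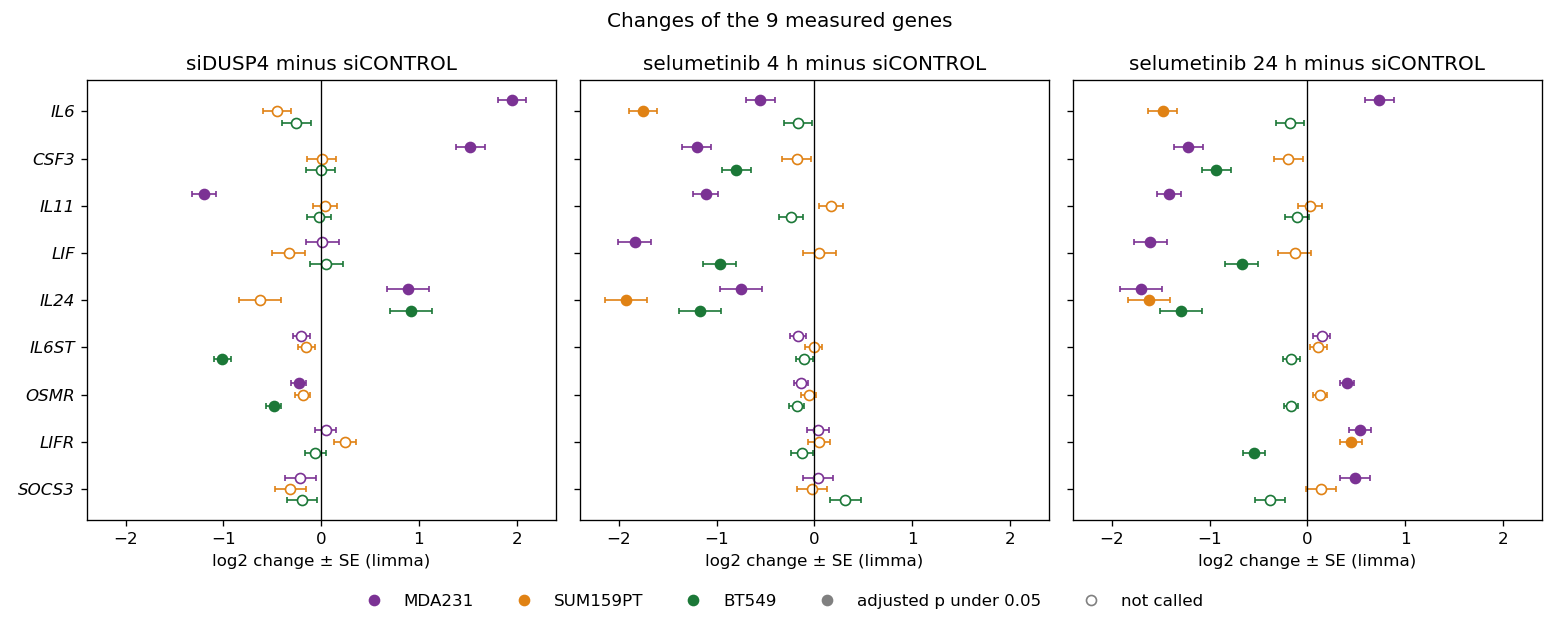
Log2 change from siCONTROL with limma's standard error for the 9 measured genes under siDUSP4, selumetinib 4 h and selumetinib 24 h, with lines in colour and called changes (adjusted p under 0.05) as filled points. IL6 in MDA231 is to the right of 0 under siDUSP4 (1.95) and at 24 h (0.74), and IL24 is to the left of 0 in all 3 lines at both times of selumetinib.

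Selumetinib for 4 h lowered 5 of the 9 genes in MDA231, all of them ligands, where 15.6% of all genes were called (1.11% higher and 14.5% lower). The groups did not overlap for 4 of the 9, all but IL6 among those called, as for 14.8% of all genes. LIF stood at 6.43, 5.86 and 5.87 after 4 h, and at 6.27, 6.18 and 6.39 after 24 h. Every array of either time was below the siCONTROL arrays, which started at 7.75, and LIF fell, with changes of -1.83 ± 0.17 at 4 h and -1.61 ± 0.17 at 24 h (adjusted p = 2.6e-09 and 8.6e-09), to 28% and 32.8% of siCONTROL. IL11 stood at 6.48, 6.32 and 6.08 after 4 h and at 6.11, 6.03 and 5.82 after 24 h. Against siCONTROL arrays of 7.36 to 7.44 the changes were -1.11 ± 0.12 at 4 h and -1.42 ± 0.12 at 24 h (adjusted p = 1.1e-07 and 1.5e-10). CSF3 stood at 5.28, 5.29 and 5.36 after 4 h and at 5.58, 5.06 and 5.24 after 24 h. These lie near the median probe, and the CSF3 changes from siCONTROL were -1.20 ± 0.15 at 4 h and -1.22 ± 0.15 at 24 h (adjusted p = 9.8e-07 and 1.7e-07).

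IL24 in MDA231 stood at 7.27, 6.68 and 6.95 after 4 h and at 6.46, 5.73 and 5.85 after 24 h. No array overlapped with siCONTROL, and IL24 changed by -0.75 ± 0.21 at 4 h (adjusted p = 0.017) and by -1.70 ± 0.21 at 24 h (adjusted p = 2.9e-07). IL6 was the ligand that turned with time, at 7.97, 7.22 and 7.44 after 4 h and at 8.87, 8.97 and 8.66 after 24 h. Array A of the 4 h group lay among the siCONTROL arrays (8.33, 8.03 and 7.94) with B and C below them, while all 24 h arrays lay above. IL6 fell at 4 h (-0.55 ± 0.15, adjusted p = 0.011) and rose by 0.74 ± 0.15 at 24 h (adjusted p = 0.0003). Between 4 h and 24 h the IL6 change was 1.29 ± 0.15 (adjusted p = 6.2e-08).

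Over all genes the median 4 h change in MDA231 was -0.13, and over the 9 genes it was -0.55. Without the 3 arrays of low upper quartile, which leaves 1 array at 4 h that is assumed to vary like the other groups, IL6 was at -0.12 (adjusted p = 0.96) and IL24 at -0.45 (adjusted p = 0.81), so both 4 h calls were lost. They were lost too without 4 h array B or C or siCONTROL array A. The IL6 call was also lost with the arrays of the line only, and both were lost with the 2 groups only, with quantile normalization repeated and with array weights (adjusted p 0.067 to 0.33). Without the 3 arrays LIF, IL11 and CSF3 kept their calls, at -1.46, -0.93 and -1.23, and the IL6 change between 4 h and 24 h was then 0.86 (adjusted p = 0.00089).

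At 24 h, 8 of the 9 genes had changed in MDA231, where 17.7% of all genes were called (7.36% higher and 10.3% lower). Besides LIF, IL11, CSF3 and IL24, which fell, and IL6, which rose, 3 genes of the receiving side rose. OSMR stood at 11.71, 11.68 and 11.60 in 24 h cells and at 11.27, 11.31 and 11.20 in siCONTROL cells. LIFR stood at 9.69, 9.61 and 9.61 in 24 h cells and at 9.21, 9.03 and 9.07 in siCONTROL cells. Neither gene overlapped between the groups, and they rose by 0.41 ± 0.07 and 0.54 ± 0.11 (adjusted p = 0.00012 and 0.0005). SOCS3, the feedback inhibitor, stood at 7.12, 6.96 and 7.15 in 24 h cells and at 6.57, 6.59 and 6.61 in siCONTROL cells, and rose by 0.49 ± 0.15 (adjusted p = 0.024). That call was lost without 24 h array A or C, without siCONTROL array A or B and with the arrays of the line only (adjusted p up to 0.10). IL6ST missed the threshold at 0.15 ± 0.09. All 9 genes had groups without overlap, as had 33.2% of all genes.

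**Figure D3:**
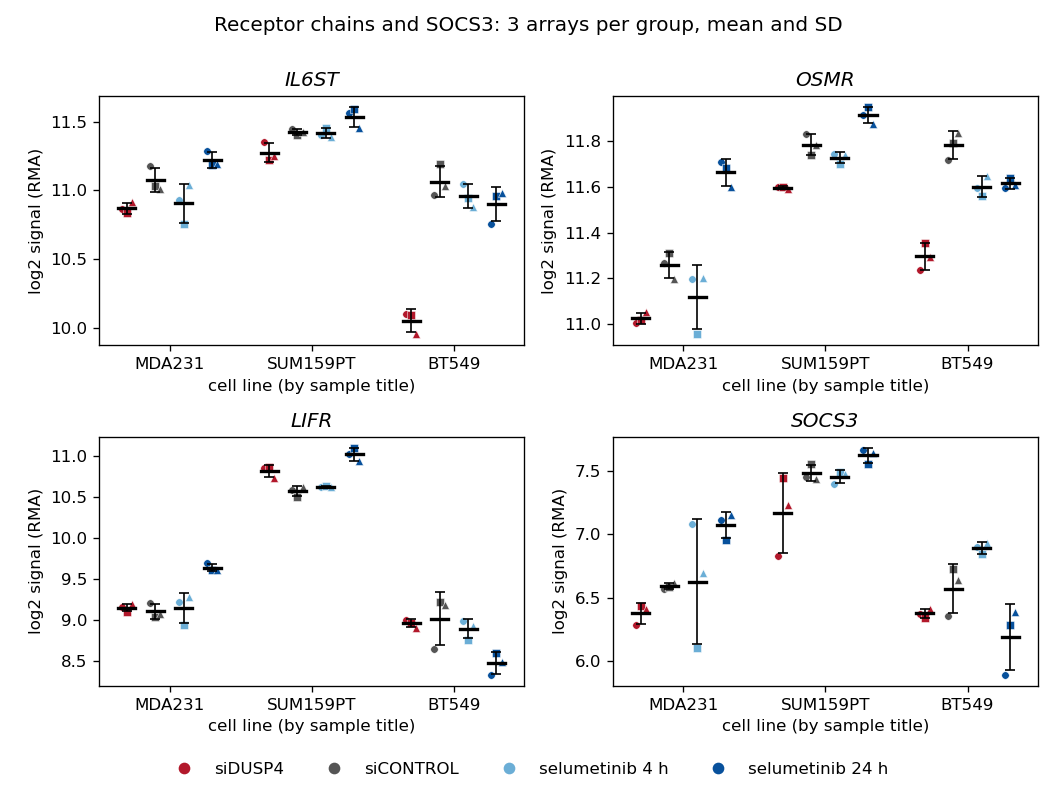
Log2 RMA signal of IL6ST, OSMR, LIFR and SOCS3 on every array, by cell line and group, with arrays A, B and C as circles, squares and triangles, the mean as a bar and the SD as a whisker. IL6ST in BT549 is lowest in the siDUSP4 arrays (9.95 to 10.10), and LIFR at 24 h lies above siCONTROL in MDA231 and SUM159PT and below it in BT549.

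In SUM159PT, 4 h of selumetinib changed 2 of the 9 genes, where 4.28% of all genes were called (0.473% higher and 3.81% lower), and both were ligands that fell. IL6 stood at 6.63, 7.20 and 6.66 after 4 h and at 7.08, 7.20 and 7.04 after 24 h. All 6 arrays were more than 1.3 below the siCONTROL arrays (8.57 to 8.61), and IL6 changed by -1.75 ± 0.15 at 4 h and by -1.48 ± 0.15 at 24 h (adjusted p = 1.3e-09 and 2.3e-08), to 29.7% and 35.9% of siCONTROL. IL24 stood at 5.09, 5.77 and 5.90 after 4 h and at 5.73, 5.66 and 6.31 after 24 h. Both groups were below the siCONTROL arrays (7.44 to 7.56), with changes of -1.93 ± 0.21 at 4 h and -1.62 ± 0.21 at 24 h (adjusted p = 3.3e-07 and 7e-06). LIF, IL11 and CSF3, which fell in MDA231, were not called in SUM159PT at either time, at -0.13 ± 0.17, 0.03 ± 0.12 and -0.19 ± 0.15 after 24 h. At 24 h, where again 4.28% of all genes were called (1.34% higher and 2.94% lower), LIFR joined as the third called gene. It stood at 11.03, 11.10 and 10.94 in 24 h cells and at 10.59, 10.51 and 10.63 in siCONTROL cells, and rose by 0.45 ± 0.11 (adjusted p = 0.014), a call lost without siCONTROL array B or 24 h array B. Groups did not overlap in 3 of 9 genes at 4 h (38.4% of all genes) and in 6 of 9 at 24 h (32.9%).

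In BT549, 4 h of selumetinib changed 3 of the 9 genes, where 0.652% of all genes were called (0.161% higher and 0.49% lower). IL24, LIF and CSF3 fell. IL24 stood at 4.88, 5.51 and 5.72 after 4 h and at 4.85, 5.59 and 5.32 after 24 h. All these arrays were below the siCONTROL arrays (6.42 to 6.77), with changes of -1.17 ± 0.21 at 4 h and -1.29 ± 0.21 at 24 h (adjusted p = 0.0031 and 0.00035). LIF stood at 7.39, 7.35 and 6.66 after 4 h and at 7.11, 7.41 and 7.76 after 24 h. The groups were spread but below the siCONTROL arrays (7.92 to 8.25), and LIF changed by -0.97 ± 0.17 at 4 h and by -0.67 ± 0.17 at 24 h (adjusted p = 0.0019 and 0.009). CSF3 stood at 5.26, 5.48 and 5.12 after 4 h and at 4.94, 5.39 and 5.12 after 24 h. Against siCONTROL arrays of 5.82 to 6.36, the changes were -0.80 ± 0.15 at 4 h and -0.93 ± 0.15 at 24 h (adjusted p = 0.0034 and 0.00024). Single arrays bore on some of these calls: at 4 h that of IL24 was lost without array A of that group (-0.93, adjusted p = 0.060) and that of CSF3 without its array C or siCONTROL array B, and with the arrays of the line only LIF and CSF3 missed the threshold (adjusted p = 0.079 and 0.054), as LIF did with the 2 groups only (adjusted p = 0.060).

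At 24 h, 4 of the 9 genes had fallen in BT549 and none by this test had risen (6 had an unadjusted p under 0.05, all lower), where 15.1% of all genes were called (2.66% higher and 12.4% lower). The fourth was LIFR, at 8.33, 8.60 and 8.48 in 24 h cells and at 8.65, 9.21 and 9.18 in siCONTROL cells. Array A of the siCONTROL group lay close to the 24 h arrays and the other 2 well above, and the change was -0.55 ± 0.11 (adjusted p = 0.0024). Without the 24 h array of low upper quartile, IL24, CSF3 and LIFR kept their calls (-1.09, -0.83 and -0.47) and LIF missed the threshold at -0.51 (adjusted p = 0.0999 without that array alone and 0.051 without the 3 arrays). The LIF call at 24 h was lost too with the arrays of the line only (adjusted p = 0.0501), the 2 groups only (0.17), quantile normalization repeated (0.073) and without siCONTROL array B (0.051). IL6 in BT549 was not called at either time, at 10.46, 10.47 and 10.24 after 4 h and 10.22, 10.29 and 10.64 after 24 h, with intervals of the change of -0.47 to 0.13 and -0.47 to 0.12. Groups did not overlap in 6 of 9 genes at 4 h (19.1% of all genes) and in 5 of 9 at 24 h (27.5%).

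The effect of selumetinib differed between lines by the F test for 4 of 9 genes at 4 h, where 1.84% of all genes passed, and for 7 of 9 at 24 h, where 9.91% did. IL6, IL11, LIF and CSF3 were in both sets. IL11 in SUM159PT and BT549 (5.80 and 5.60) and CSF3 in SUM159PT (5.60) started near the median probe at 5.33, where a fall may not show. The IL6 effect at 24 h was higher in MDA231 than in SUM159PT by 2.22 ± 0.21 and higher in MDA231 than in BT549 by 0.91 ± 0.21 (adjusted p = 3.4e-09 and 0.0034). LIF responses at 4 h differed between MDA231 and SUM159PT by -1.88 ± 0.24 (adjusted p = 1.9e-05), beside the low starting level of SUM159PT. LIFR responses at 24 h differed between MDA231 and BT549 by 1.08 ± 0.16 (adjusted p = 1.2e-05), with a rise in the one and a fall in the other. IL24, called lower in every line at both times, missed the threshold of the F test at 4 h and 24 h (adjusted p = 0.0685 and 0.626). The pairwise contrast of MDA231 and SUM159PT at 4 h was called for IL24, by 1.17 ± 0.30 (limma, adjusted p = 0.040), with the larger fall in SUM159PT.

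Between 4 h and 24 h, 6 of the 9 genes changed in MDA231, where 24.9% of all genes were called (20.4% higher and 4.48% lower). IL6 rose as given above, and IL24 fell further (-0.95 ± 0.21). OSMR, LIFR, SOCS3 and IL6ST rose by 0.54 ± 0.07, 0.49 ± 0.11, 0.45 ± 0.15 and 0.31 ± 0.09 (adjusted p = 2.1e-06, 0.0012, 0.031 and 0.0071). SOCS3 on the 4 h arrays was spread over 7.08, 6.11 and 6.70, and without array B its later rise was 0.19 (adjusted p = 0.41). Without that array the IL6ST difference was 0.24 and also missed the threshold (adjusted p = 0.066). With the 2 groups only OSMR, LIFR, SOCS3 and IL6ST missed it (adjusted p = 0.063, 0.097, 0.27 and 0.28). With array weights LIFR, IL24, SOCS3 and IL6ST did (adjusted p = 0.060, 0.076, 0.094 and 0.15). IL6ST and SOCS3 were lost with the arrays of the line only. IL6ST was also lost with quantile normalization repeated, and SOCS3 with array medians aligned and without 4 h array C or 24 h array A or C. Without the 3 arrays of low upper quartile OSMR, LIFR, IL6ST and IL24 kept their calls, at 0.46, 0.42, 0.29 and -1.25 (adjusted p = 0.00021, 0.048, 0.046 and 0.0039), SOCS3 was at -0.0055 (adjusted p = 0.99), and IL11 was then called too (-0.49, adjusted p = 0.028). In SUM159PT, 1 of 9 genes changed between the times (3.01% of all genes, 2.32% higher and 0.685% lower), LIFR by 0.40 ± 0.11, which no fit with 1 array left out called. In BT549, SOCS3 stood at 5.89, 6.28 and 6.39 after 24 h and at 6.90, 6.84 and 6.93 after 4 h, and changed by -0.70 ± 0.15 (adjusted p = 0.0082). LIFR changed there by -0.42 ± 0.11 (adjusted p = 0.021), so that 2 of 9 genes changed, where 7.73% of all genes were called (1.91% higher and 5.82% lower). With the 2 groups only both calls were lost. That of LIFR was also lost with the arrays of the line only and with quantile normalization repeated. Leaving out 24 h array A ended both BT549 calls (SOCS3 -0.56, adjusted p = 0.071, and LIFR -0.35, adjusted p = 0.11), and leaving out 4 h array A or C ended that of LIFR. The fit without the 3 arrays of low upper quartile, which also drops that 24 h array, gave the same estimates. SOCS3 kept its call in it (adjusted p = 0.0084) and LIFR did not (adjusted p = 0.057).

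Of 14 other ligands of the family and colony stimulating factors, 2 rose and 1 fell in MDA231 siDUSP4 cells (17.6% of all genes called), 2 fell at 4 h (15.6%), and 2 rose and 1 fell at 24 h (17.7%). CSF1, the macrophage growth factor, was at -0.86 ± 0.13 in MDA231 siDUSP4 cells (adjusted p = 1.3e-05) and at -0.63 ± 0.13 in BT549 siDUSP4 cells (adjusted p = 0.00099), a fall where CSF3 rose in MDA231. IL12A, the p35 subunit shared by interleukins, rose by 0.91 ± 0.16 with siDUSP4 in MDA231 and fell at 4 h (-0.93 ± 0.16). KITLG, the ligand of the receptor KIT, rose in MDA231 by 1.05 ± 0.21 with siDUSP4 and by 1.06 ± 0.21 at 24 h. In SUM159PT 2 of the 14 fell with siDUSP4 (2.83% of all genes called), 1 fell at 4 h (4.28%) and 0 were called at 24 h (4.28%). In BT549 2 fell with siDUSP4 (14.2%), 0 were called at 4 h (0.652%) and 2 rose at 24 h (15.1%). IL34, a second ligand of the CSF1 receptor, was among them, at -0.60 ± 0.13 in SUM159PT siDUSP4 cells, -0.47 ± 0.13 in BT549 siDUSP4 cells and 0.88 ± 0.13 in BT549 24 h cells (adjusted p = 0.0047, 0.011 and 6.7e-05).

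Of 13 other receptor chains, 1 rose and 2 fell with siDUSP4 in MDA231 (17.6% of all genes called), and 1 rose and 2 fell with siDUSP4 in BT549 (14.2%). With selumetinib in MDA231, 0 were called at 4 h (15.6%), and 2 rose and 2 fell at 24 h (17.7%). BT549 had 0 called at 4 h (0.652%) and 1 lower at 24 h (15.1%). SUM159PT had 1 lower with siDUSP4 (2.83%), 1 lower at 4 h (4.28%) and 0 called at 24 h (4.28%). IL6R, the private chain of IL6, stood at 6.51 in MDA231 siDUSP4 cells and 6.08 in siCONTROL cells, and rose by 0.44 ± 0.12 (adjusted p = 0.0063). It rose by 0.58 ± 0.12 in BT549 siDUSP4 cells (adjusted p = 0.0006), and fell in MDA231 at 24 h (-0.84 ± 0.12) (adjusted p = 1.5e-06). IL20RB, a receptor chain of IL24, averaged 4.54 in MDA231, 9.31 in SUM159PT and 9.32 in BT549 siCONTROL cells, and fell in BT549 siDUSP4 cells (-0.74 ± 0.11). IL31RA, which pairs with OSMR, fell in MDA231 at 24 h (-1.28 ± 0.16), and IL10RB, a chain of the IL10 receptor, fell with siDUSP4 in MDA231 (-0.68 ± 0.13). Among 9 signal transducers 0 were called with siDUSP4 in MDA231 (17.6% of all genes called), and 1 rose and 2 fell at 24 h (17.7%). JAK2, a kinase of these receptors, fell there (-0.67 ± 0.15). GAB1 and PTPN11, adaptors that link gp130 to ERK, fell in BT549 at 24 h (-0.53 ± 0.13 and -0.31 ± 0.09), and STAT5B fell in MDA231 at 4 h (-0.34 ± 0.10). Of the 9 transducers, 1 rose and 2 fell in BT549 at 24 h (15.1% of all genes called). In MDA231 at 4 h 0 rose and 2 fell (15.6%), and in BT549 1 fell with siDUSP4 (14.2%) and 0 were called at 4 h (0.652%). SUM159PT had 0 called in any comparison (2.83% to 4.28% of all genes).

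Of 12 other negative regulators, at most 2 were called in any comparison, where 0.652% to 17.7% of all genes were. SOCS2 fell with siDUSP4 in MDA231 (-0.87 ± 0.14) and in BT549 (-0.69 ± 0.14), and so did SOCS6 in BT549 (-0.72 ± 0.10). PTPN6, the phosphatase SHP-1, rose by 0.75 ± 0.14 in MDA231 at 24 h, and PTPN1 rose by 0.40 ± 0.10 in MDA231 siDUSP4 cells. STAT3 and related target genes, 18 measured, were called in both directions in MDA231 at 24 h, 5 higher and 2 lower (7.36% and 10.3% of all genes). FGG, the fibrinogen gamma chain of the acute phase, stood at 7.64 in 24 h cells and 4.08 in siCONTROL cells, and rose by 3.56 ± 0.17 (adjusted p = 8.5e-17). BCL3, an atypical IkB protein, rose by 1.16 ± 0.12 (adjusted p = 1.4e-08), and MCL1, a survival factor, fell (-0.97 ± 0.09). In MDA231 siDUSP4 cells 1 of the 18 rose and 4 fell (7.86% and 9.77% of all genes), and at 4 h 0 rose and 7 fell (1.11% and 14.5%). SUM159PT had 1 of the 18 higher and 1 lower with siDUSP4 (2.83% of all genes called). At 4 h it had 3 lower and at 24 h 0 called (4.28% of all genes each time). BT549 had 2 higher and 2 lower with siDUSP4 (14.2%), 0 called at 4 h (0.652%) and 1 lower at 24 h (15.1%).

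Of transcription factors that act at these cytokine genes, 18 were measured. In MDA231, 0 rose and 7 fell with siDUSP4, where 7.86% of all genes were called higher and 9.77% lower. At 4 h 1 rose and 10 fell (1.11% and 14.5% of all genes, so calls were mostly lower over the whole array too), and at 24 h 3 rose and 7 fell (7.36% and 10.3%). The median change of the 18 was -0.26, -0.38 and -0.13 with siDUSP4, 4 h and 24 h, beside 0.01, -0.13 and 0.02 over all genes. In SUM159PT 3 fell at 4 h (3.81% of all genes lower), and 0 were called with siDUSP4 or at 24 h (2.83% and 4.28% of all genes). In BT549 1 rose and 1 fell with siDUSP4 (4.97% and 9.22%), 2 fell at 4 h (0.49%) and 1 fell at 24 h (12.4%). EGR1, an early target of ERK, stood at 7.97 in MDA231 siDUSP4 cells and 9.10 in siCONTROL cells, a change of -1.13 ± 0.17 (adjusted p = 8.4e-06). In BT549 the siDUSP4 change was 1.31 ± 0.17 (adjusted p = 1.1e-06), opposite in sign. With selumetinib EGR1 changed by -3.33 ± 0.17 at 4 h and -3.54 ± 0.17 at 24 h in MDA231, and by -1.59 ± 0.17 and -1.64 ± 0.17 in BT549. In SUM159PT it fell to 5.94 at 4 h, against 7.94 in siCONTROL cells (adjusted p = 1.4e-09), and the change was -0.15 ± 0.17 at 24 h (adjusted p = 0.75). FOS, a subunit of AP-1, fell in MDA231, with changes of -0.59 ± 0.15 under siDUSP4, -1.71 ± 0.15 at 4 h and -1.47 ± 0.15 at 24 h. FOSL1, another AP-1 subunit, changed by -1.71 ± 0.16 at 4 h and -1.71 ± 0.16 at 24 h in MDA231, and was at -0.35 ± 0.16 with siDUSP4 (adjusted p = 0.15). CEBPD, a C/EBP factor, rose by 1.40 ± 0.17 at 24 h and fell with siDUSP4 in MDA231 (-0.53 ± 0.17). None of these lists was tested as a set.

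**Figure D4:**
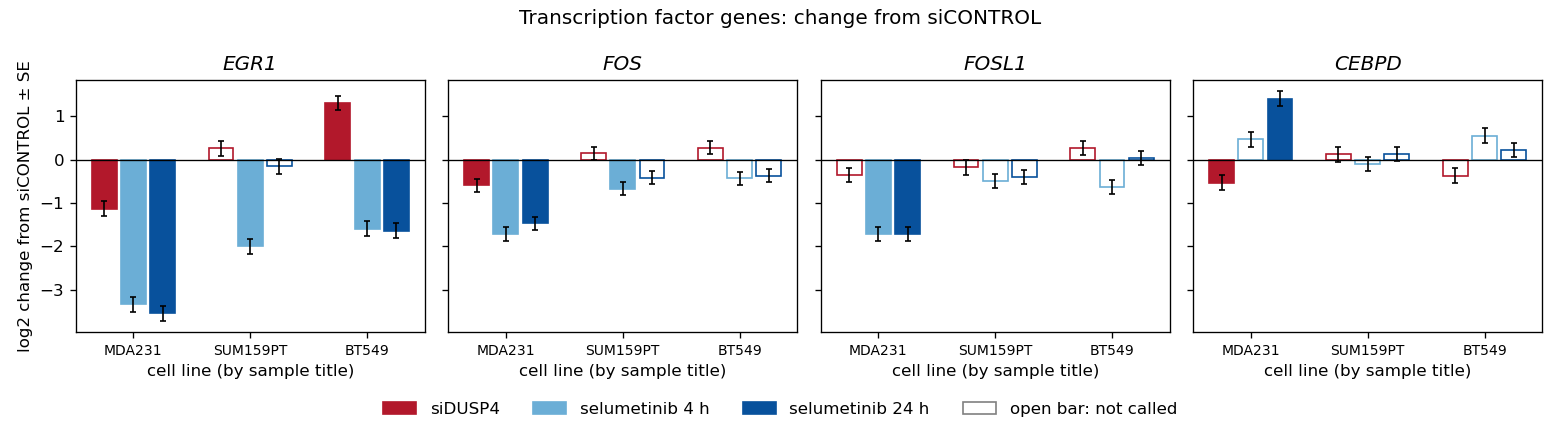
Log2 change from siCONTROL with limma's standard error for EGR1, FOS, FOSL1 and CEBPD, by cell line and treatment; filled bars were called at an adjusted p under 0.05 and open bars were not. EGR1 with siDUSP4 is at -1.13 in MDA231 and at 1.31 in BT549, and CEBPD at 24 h in MDA231 is at 1.40.

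The genes whose 12 group means ran most like those of a ligand were searched among 8289 genes outside the family whose means spanned at least 1 on the log2 scale. For LIF the closest was FOSL1 (Pearson r = 0.98), followed by TEX30 (0.98) and RECQL4 (0.98). For IL6 they were LHFPL2 (0.96), ZNF416 (0.96) and UPP1 (0.96), and for IL11 they were SHC4 (0.93), MAMLD1 (0.93) and HIVEP3 (0.93). UPP1, uridine phosphorylase, averaged 7.43 in MDA231 siDUSP4 cells and 6.47 in MDA231 siCONTROL cells. HIVEP3 averaged 6.73 in MDA231 siDUSP4 cells, 6.26 at 4 h and 6.32 at 24 h, with 7.44 in siCONTROL cells. Within the family, LIFR and SOCS3 had r = 0.92, LIF and LIFR r = -0.92, and IL24 and CSF3 r = 0.80. These values describe 12 means that share lines and arrays. Differences between lines and between treatments both enter them, and the part of either was not tested.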

How the data were processed

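Affymetrix Expression Console 1.1 and RMA are named in the submitters' processing notes, and the deposited values are log2 signals. RMA as a method corrects the background, aligns the arrays by quantiles and summarises probes. The sources used here give no further options and no genome build. Of 33297 probes, 19181 carry 1 gene symbol in the platform annotation, and 17958 genes remained with the brightest probe of each. One limma model (version 3.58.1, R 4.3.3) with 12 group means was fitted to all 36 arrays with 24 residual and 7.80 prior degrees of freedom, so all groups share one estimate of the spread. P-values were adjusted over all genes within a comparison by the Benjamini-Hochberg method, and a gene was called under 0.05. Percentages and folds are back-transformed log2 changes, with 95% intervals from the model. Calls were repeated with other samples in the fit, normalizations, filters, probes, variance models, array weights and left-out arrays, and the fit was tested on simulated data. The members, gene lists and the 3 arrays of low upper quartile were chosen with earlier results of these data known. All members were named. DUSP4 was named as the check of the siRNA. From each list came the 4 genes of smallest adjusted p over the 9 comparisons against siCONTROL, and for IL6, IL11 and LIF the 3 most similar genes. The letters were checked as pairs: 12 of 54 correlations of the same letter between groups of a line exceeded 0.1 (range -0.41 to 0.45), so the letters were not taken to pair arrays. The number of arrays limits the precision.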

Additional observations from a re-analysis of the deposited data

Results flagged for a closer look

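The effect of a treatment differed between the 3 lines for 16 pairs of gene and treatment by limma's F test, adjusted over all genes. For siDUSP4 the adjusted p was 2.74e-10 for IL6, 3.07e-06 for IL11, 1.38e-06 for CSF3, 3.58e-06 for IL6ST and 0.000364 for IL24. The log2 effects of siDUSP4 in MDA231, SUM159PT and BT549 were 1.95, -0.45 and -0.25 for IL6, -1.20, 0.04 and -0.02 for IL11, 1.53, 0.01 and 0.00 for CSF3, -0.20, -0.15 and -1.01 for IL6ST, and 0.88, -0.62 and 0.92 for IL24.

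For 4 h of selumetinib the adjusted p was 3.12e-05 for IL6, 3.89e-05 for LIF, 7.33e-05 for IL11 and 0.0153 for CSF3. IL6 had its largest fall in SUM159PT (-1.75) among the 3 lines, and LIF, IL11 and CSF3 had theirs in MDA231 (-1.83, -1.11 and -1.20).

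For 24 h of selumetinib the adjusted p was 9.69e-09 for IL6, 2.7e-07 for IL11, 7.7e-06 for LIFR, 0.000176 for LIF, 0.00119 for OSMR, 0.00276 for CSF3 and 0.0212 for SOCS3. LIFR was called higher in MDA231 (0.54) and SUM159PT (0.45) and lower in BT549 (-0.55). IL6 was called higher in MDA231 (0.74) and lower in SUM159PT (-1.48). Each line was profiled once with 3 arrays a group, and line and culture medium cannot be told apart. Starting levels of IL11 in SUM159PT and BT549 and of CSF3 in SUM159PT were near the median probe, where a fall may not show. LIF in SUM159PT started below the median probe, at 4.44 against 5.33, so a fall may not show there either.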

How the results depend on the processing

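Of 81 changes of the 9 genes against siCONTROL, 33 were called, where 0.652% to 17.7% of all genes were called in a comparison. Under every alternative run 22 of the 33 were called, a share that was not counted over all genes. Among the 22 were IL6, CSF3, IL11 and IL24 with siDUSP4 in MDA231, and IL6ST and OSMR with siDUSP4 in BT549. LIF, IL11 and CSF3 at both times in MDA231 were also among them. For 9 of the other 11 the alternatives that ended the call are given beside the results, OSMR with siDUSP4 in MDA231 having also missed the threshold with the arrays of the line only and the 2 groups only (adjusted p = 0.24 and 0.075). The remaining 2, CSF3 and LIFR in BT549 at 24 h, missed it with the 2 groups only (adjusted p = 0.088 and 0.20). Only 1 alternative turned a called direction, and it was chosen after seeing the data: without the 3 arrays of lowest upper quartile, SOCS3 between 4 h and 24 h in MDA231 was at -0.0055 in place of 0.45, and the cause was not tested.

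The number of the 9 genes called moved by over 1.5 times in these fits. In MDA231 at 4 h, 5 became 3 with the 2 groups only, with quantile normalization repeated, with array weights and without the 3 arrays, and leaving out single arrays gave 3 to 5. In SUM159PT with siDUSP4, 0 became 2 with the arrays of the line only, 2 with the 2 groups only, 1 with quantile normalization repeated and 7 with array weights. Over all 17958 genes the calls rose as well, from 509 to 1333, 1558, 1085 and 3530 in the same fits. In BT549, 3 became 1 at 4 h with the arrays of the line only, and 4 became 1 at 24 h with the 2 groups only. Calls over all genes went from 117 to 24 and from 2713 to 15 in these fits. In MDA231 at 4 h they went from 2798 to 1868 with quantile normalization repeated and to 349 with array weights. Between 4 h and 24 h, 6 in MDA231 became 2 with the 2 groups only and 2 with array weights, 1 in SUM159PT became 2 with array weights and 0 to 0 without single arrays, and 2 in BT549 became 1 with the arrays of the line only, 0 with the 2 groups only, 1 with quantile normalization repeated, 1 without the 3 arrays and 0 to 2 without single arrays. Over all genes, calls between 4 h and 24 h went in MDA231 from 4471 to 924 with the 2 groups only and 1588 with array weights. They went in SUM159PT from 540 to 1569 with array weights, and lay between 297 and 389 without single arrays. For BT549 they went from 1389 to 529 with the arrays of the line only, 0 with the 2 groups only and 378 with quantile normalization repeated. Without single arrays BT549 had 278 to 2369. The estimate of array weights stopped before its convergence tolerance.

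Counts over all genes moved more: 2798 called in MDA231 at 4 h became 149 with the 2 groups only and 229 without the 3 arrays, and leaving out single arrays gave 553 to 6573, while 2713 in BT549 at 24 h became 15 with the 2 groups only. With the letter as a replicate block, 5 of the 9 genes and 3155 of all genes, in place of 3166, were called with siDUSP4 in MDA231, and the block changed none of 108 calls of the 9 genes. A share of 15 of 36 arrays correlated best with an array of its own letter. A second, dimmer IL6 probe (3.84 to 6.93 over all arrays) gave 0.53 for siDUSP4 in MDA231 (limma, adjusted p = 0.064 over probes). It gave 0.06 at 24 h in MDA231 (adjusted p = 0.95), and -0.30 at 4 h and -0.16 at 24 h in SUM159PT (adjusted p = 0.45 and 0.83). The second LIF probe (4.33 to 5.94) gave -0.38 at 4 h in MDA231 (adjusted p = 0.15), and -0.60 at 4 h and -0.37 at 24 h in BT549 (adjusted p = 0.14 and 0.13). Neither second probe was called in any comparison against siCONTROL.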
